A study of Ananas comosus with 3 samples.

Results

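Sugar, glycolysis and organic acid genes of pineapple fruit were examined as cDNA contigs whose deposited description names an enzyme or transporter of sucrose and starch metabolism, glycolysis, fermentation, organic acid metabolism or the pentose phosphate pathway. A contig here is a group of spotted cDNAs (elements) that share an assembled sequence. The search of the descriptions found 53 contigs carried by 92 elements, among 7773 features measured in all, where a feature is a contig or a cDNA with no contig number. Of the 53 contigs, 36 were carried by 1 element, 9 by 2 elements and 8 by 3 or more.

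Flesh from the middle of field grown Smooth Cayenne, Clone C10, pineapple fruit (Ananas comosus), with skin and pith removed, was compared between mature green, unripe fruit and mature yellow, ripe fruit on 3 two-colour cDNA slides. Both stages were hybridized to each slide. Mature yellow RNA carried Cy3 on replicates 1 and 3 and Cy5 on replicate 2, where the dyes were exchanged. The spotted cDNAs came from fruit, root, root tip, nematode infected root and gall libraries, so some descriptions name nematode genes. Flesh holds several cell types, and on these slides fewer cells of a type and less RNA per cell cannot be told apart. Which hybridizations used separate fruits was not given in the sources used here, so p-values measure only the spread between slides, which may be technical.

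Fruit flesh stores sucrose, glucose and fructose together with citric and malic acid. Glycolysis breaks hexoses down to pyruvate and feeds the mitochondrial citric acid cycle, while pyruvate decarboxylase and alcohol dehydrogenase turn pyruvate into acetaldehyde and ethanol. Sucrose synthase, invertase and sucrose-phosphate synthase cleave and rebuild sucrose. Malate and citrate are made or used by phosphoenolpyruvate carboxylase, malate dehydrogenase, citrate synthase, aconitase and isocitrate dehydrogenase.

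The highest log2 ratios of mature yellow over mature green fruit belonged to 2 enolase contigs, a pyruvate decarboxylase and a triose-phosphate isomerase. These 4 contigs were at least 1.5-fold higher in mature yellow fruit, against 3.18% of all features, and no member was 1.5-fold lower, against 2.06% of all features. Together 5.24% of all features were 1.5-fold apart in either direction. None of the 53 contigs passed the test, which required 1.5-fold and an adjusted p under 0.05 in limma, and 10 of the 7773 features (0.129%) passed it. The log2 ratio was above 0 on all 3 slides for 20 of the 53 contigs, against 17.9% of all features. It was below 0 on all 3 slides for 8 contigs, against 16.5% of all features. An unadjusted limma p under 0.05 was found for 8 contigs, all higher in mature yellow fruit, against 5.43% of all features, or 8.95% with both directions counted.

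The median log2 ratio of the 53 contigs was 0.05, and that of all features was 0.01. The members ranged from -0.26 to 1.14, and their medians on replicates 1, 2 and 3 were 0.08, 0.02 and 0.02. By role, lower glycolysis held 7 higher contigs of 9, upper glycolysis 6 of 8 and pyruvate and fermentation 5 of 6, while sucrose and starch held 3 of 8, organic acids 7 of 16 and pentose phosphate and other 3 of 6. Of all features 53.2% were higher in mature yellow fruit, and of the 53 contigs 58.5%. The medians of the roles were 0.05, 0.10, 0.16, -0.04, -0.05 and 0.03 in the same order.

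**Figure D1:**
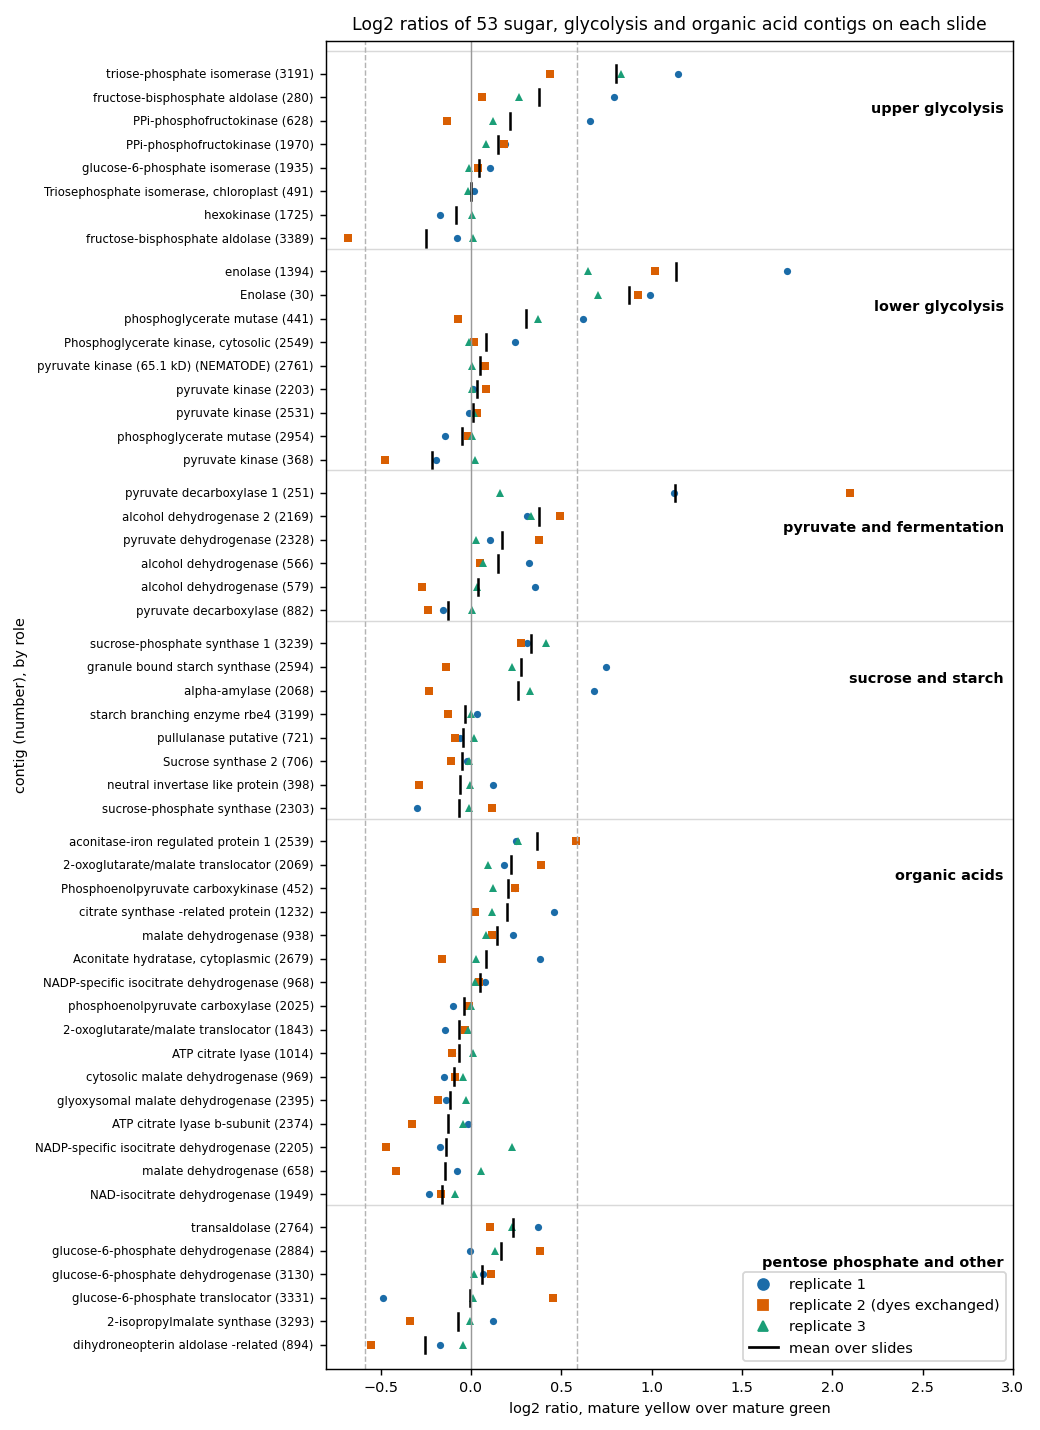
Log2 ratio of mature yellow over mature green fruit (x axis) for the 53 contigs (y axis, grouped by role), with a point for each slide, a black bar for the mean over slides and dashed lines at 1.5-fold. The bars of enolase (1394 and 30), pyruvate decarboxylase 1 (251) and triose-phosphate isomerase (3191) lie beyond the upper dashed line, and no bar lies beyond the lower one.

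Brightness moved with the log2 ratio over the whole array. Among features with a mean log2 intensity under 7, the median log2 ratio was 0.00 and 0.147% were at least 1.5-fold higher in mature yellow fruit. Between 9 and 10 the median was 0.22 and 14.2% were at least 1.5-fold higher, and at 10 or more the median was 0.48 and the share 37.6%. Contigs 30, 1394 and 3191 lay between 9 and 10 with aconitase contig 2539, and pyruvate decarboxylase contig 251 lay between 8 and 9, where 8.03% of features were at least 1.5-fold higher. The median of the 4 members between 9 and 10 was 0.84 and that of the 10 members between 8 and 9 was 0.23, beside 0.10 for all 760 features of the latter band. The part of brightness in the ratios of the members was not tested.

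**Figure D2:**
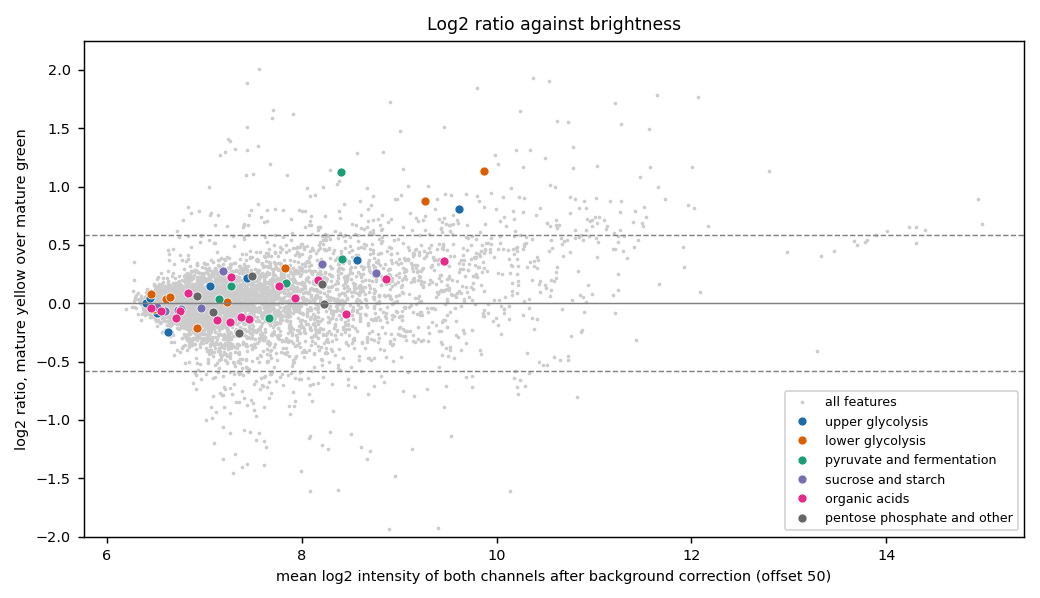
Log2 ratio of mature yellow over mature green fruit (y axis) against mean log2 intensity of both channels (x axis), with grey points for all features, coloured points for the 53 contigs by role and dashed lines at 1.5-fold. The 4 contigs above the upper line are among the brighter members, and 26 features lie outside the plotted range.

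Of the 53 contigs, 37 were above the blank spots in both channels on all 3 slides, with a median log2 ratio of 0.15. The other 16 had a median of -0.03 and held none of the 8 contigs with an unadjusted p under 0.05. Phosphoglycerate kinase contig 2549, phosphoenolpyruvate carboxylase contig 2025 and glucose-6-phosphate isomerase contig 1935 were not well above background in either channel on any slide. Hexokinase contig 1725, phosphoglycerate mutase contig 2954 and starch branching enzyme contig 3199 were never above the blank spots in mature yellow fruit and were above them in mature green fruit on 1 slide. The processing adds a constant to every spot, which draws the ratios of dim spots towards 0. A small ratio in these 6 contigs therefore does not show an equal transcript level, and ratios of other dim members are drawn in too.

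Enolase, which converts phosphoglycerate to phosphoenolpyruvate in the lower part of glycolysis, was measured by contigs 30 and 1394. Contig 30 was carried by 11 elements and gave log2 ratios of 0.99, 0.93 and 0.70 on replicates 1, 2 and 3. All 3 slides were higher in mature yellow fruit, with a mean of 0.87 ± 0.15 (SD, n = 3), a fold of 1.83 and an adjusted p of 0.121 in limma. Its spot intensity minus local background in mature yellow against mature green fruit was 1356 against 441 on replicate 1, 2433 against 1845 on replicate 2 and 650 against 207 on replicate 3. The order of the stages was therefore the same before dye normalization on each slide, the one with exchanged dyes included.

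The elements of contig 30 did not measure it equally. All 11 had a mean log2 ratio above 0, from 0.04 to 1.59, and 8 of them passed the 2 SD test of the study on all 3 slides. The 3 lowest were JBW079A04 at 0.04, JBW080C06 at 0.13 and JBW037H07 at 0.26, and these were also the dimmest. JBW040A12 had the highest mean and varied most, with 2.50 on replicate 1, 0.08 on replicate 2 and 2.21 on replicate 3. JBW061E01 gave 1.04, 1.18 and 0.81. Elements of a contig share sequence and are not replicates of a stage.

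Contig 1394, the other enolase, was carried by 1 element and gave log2 ratios of 1.75, 1.02 and 0.65 on replicates 1, 2 and 3. Its mean of 1.14 ± 0.56 (SD, n = 3), a fold of 2.20, was the highest of the 53 contigs and 49th of all features ranked by log2 ratio, with an adjusted p of 0.372 in limma. Net intensities in mature yellow against mature green fruit were 2227 against 524, 3061 against 2556 and 278 against 88.1. The difference between the enolase contigs, 0.26 ± 0.43 (SD, n = 3), was smaller than its spread over slides. Whether transcripts of one enolase hybridized to elements of the other was not tested, and this holds for each pair of contigs given the same enzyme name.

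**Figure D3:**
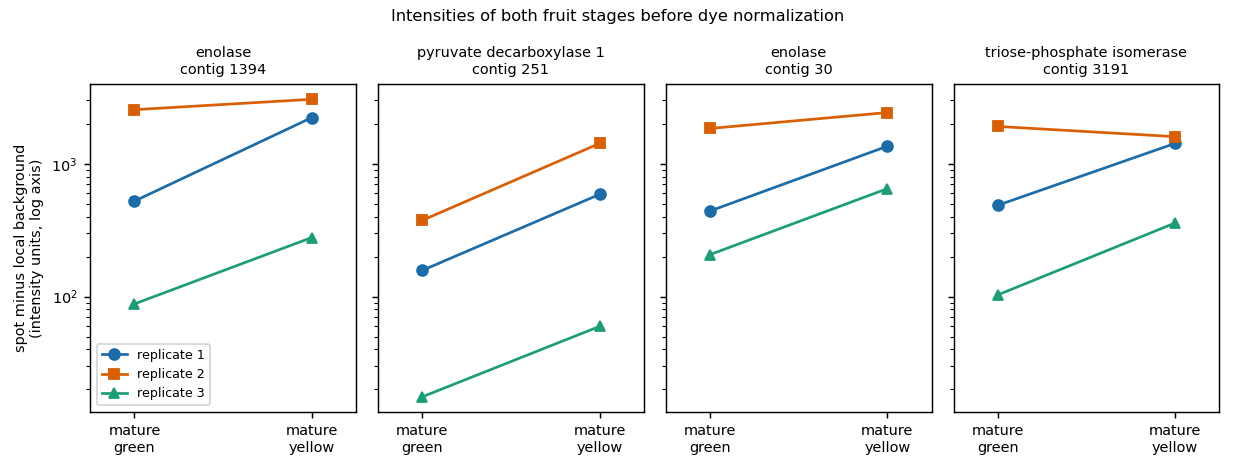
Spot intensity minus local background (y axis, log scale) in mature green and mature yellow fruit (x axis) for contigs 1394, 251, 30 and 3191, with a line for each slide. Every line goes up except triose-phosphate isomerase on replicate 2, where mature green read 1911 and mature yellow 1601 before dye normalization.

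Phosphoglycerate mutase, which moves the phosphate of phosphoglycerate one step before enolase, was measured by contig 441 with 6 elements. Its log2 ratios were 0.62, -0.07 and 0.37 on replicates 1, 2 and 3. The slide with exchanged dyes thus differed in sign from the others, and the mean of 0.30 ± 0.35 (SD, n = 3) had an adjusted p of 0.640 in limma. The 4 elements that passed the 2 SD test on all slides had means of 0.34, 0.40, 0.45 and 0.74, and the other elements, which were dim, had means of -0.01 and -0.09. The other mutase, contig 2954, was not well above background.

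Pyruvate kinase makes pyruvate and ATP from phosphoenolpyruvate, the product of enolase. Its plant contig 368 gave -0.19, -0.47 and 0.02, a mean of -0.21 ± 0.25 (SD, n = 3) and the lowest of lower glycolysis, with an adjusted p of 0.657 in limma. Contigs 2203 and 2531 had means of 0.03 and 0.01, and contig 2761, described as a nematode pyruvate kinase, had 0.05. None of the pyruvate kinases reached the size of the enolase ratios, and the spread of contig 368 over slides was larger than its mean. All were dim, with mean log2 intensities of 6.61 to 7.23 against 9.27 for enolase contig 30 and 9.87 for contig 1394. Only 0.147% of all features under 7 and 1.79% from 7 to 8 were at least 1.5-fold higher in mature yellow fruit. The contrast between these enzymes therefore cannot be separated from brightness.

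Triose-phosphate isomerase interconverts the 2 triose phosphates formed when fructose bisphosphate is split. Contig 3191, carried by 1 element, gave 1.14, 0.44 and 0.83 on replicates 1, 2 and 3, a mean of 0.80 ± 0.35 (SD, n = 3), a fold of 1.75 and an adjusted p of 0.330 in limma. All 3 ratios were above 0, although on replicate 2 the mature green channel read higher before normalization, where the median net intensity over the array was 116 in mature green and 67 in mature yellow fruit. The chloroplast form, contig 491, had a mean of 0.00 over 2 slides and was above the blank spots on 1. On those 2 slides contig 3191 exceeded it by 1.13 and 0.85.

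The other enzymes of upper glycolysis had smaller ratios. Fructose-bisphosphate aldolase, which splits fructose bisphosphate, was measured by contig 280 at 0.79, 0.06 and 0.27 and by contig 3389 at -0.08, -0.68 and 0.01. Contig 280 had a mean of 0.37 ± 0.38 (SD, n = 3) with an adjusted p of 0.603 in limma, and contig 3389 had -0.25 ± 0.38 with 0.736, the lowest of its role. The signal of contig 280 came from one of its elements: JBW034G08 had a mean of 0.68, and JBW038A10, at the level of the background, had 0.07. Contig 3389 was above the blank spots on 1 slide only.

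Pyrophosphate-dependent phosphofructokinase, a plant enzyme that phosphorylates fructose 6-phosphate with pyrophosphate in place of ATP, was measured by contigs 1970 and 628. Contig 1970, with 3 elements, gave 0.19, 0.18 and 0.08, a mean of 0.15 ± 0.06 (SD, n = 3) with an adjusted p of 0.566 in limma. The elements JBW079F05 and JBW094A03 had means of 0.30 and 0.15, and JBW080F01, near the level of the background, had 0.01. Contig 628 gave 0.66, -0.14 and 0.12, which did not keep one sign.

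Pyruvate decarboxylase, which releases carbon dioxide from pyruvate to form acetaldehyde, had the widest spread over slides among the 4 highest contigs. Pyruvate decarboxylase 1, contig 251, gave log2 ratios of 1.12, 2.10 and 0.16 on replicates 1, 2 and 3. The mean was 1.13 ± 0.97 (SD, n = 3), a fold of 2.19, with an adjusted p of 0.566 in limma. Net intensities in mature yellow against mature green fruit were 589 against 158, 1424 against 375 and 59.7 against 17.6, so the contig was dimmest on replicate 3, where its ratio was lowest. Its elements had means of 1.22 and 1.04. The second pyruvate decarboxylase, contig 882, gave -0.16, -0.24 and 0.00, a mean of -0.13 ± 0.12 (SD, n = 3) with an adjusted p of 0.662 in limma.

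Alcohol dehydrogenase reduces acetaldehyde to ethanol. Contig 2169, alcohol dehydrogenase 2, gave 0.31, 0.49 and 0.33, close together and all above 0. Its mean was 0.38 ± 0.10 (SD, n = 3), a fold of 1.30, with an adjusted p of 0.267 in limma. Contig 566, with 3 elements, gave 0.32, 0.05 and 0.07 and a mean of 0.15 ± 0.15 (SD, n = 3), adjusted p 0.666 in limma. Contig 579 gave 0.35, -0.27 and 0.03.

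A further contig, contig 1110, stands in the glycolysis list of the study as an alcohol dehydrogenase, but its deposited description names no enzyme, so it is not among the 53 contigs. It gave 0.64, 1.01 and 0.48, a mean of 0.71 ± 0.27 (SD, n = 3), a fold of 1.64 and an adjusted p of 0.276 in limma. Only 1 of its 3 elements was numbered in the full spot tables, and that element alone had a mean of -0.11.

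Pyruvate dehydrogenase, which carries pyruvate into the citric acid cycle as acetyl-CoA, was measured by contig 2328 at 0.11, 0.37 and 0.03.

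Sucrose metabolism was measured by contigs that were mostly dim. Sucrose-phosphate synthase 1, contig 3239, an enzyme that makes sucrose phosphate from UDP-glucose and fructose 6-phosphate, gave 0.31, 0.28 and 0.41. These slides were close to each other, with a mean of 0.33 ± 0.07 (SD, n = 3), a fold of 1.26 and an adjusted p of 0.269 in limma. A second sucrose-phosphate synthase, contig 2303, gave -0.30, 0.12 and -0.01, a mean of -0.07 ± 0.21 (SD, n = 3) with an adjusted p of 0.910 in limma, and was above the blank spots in mature yellow fruit on 1 slide. Sucrose synthase 2, contig 706, gave -0.02, -0.11 and -0.01 over 4 elements, a mean of -0.05 ± 0.06 (SD, n = 3) with an adjusted p of 0.866 in limma, and 3 of those elements were not above the blank spots in mature yellow fruit on replicate 1. The neutral invertase of contig 398, which cleaves sucrose into glucose and fructose, had a mean of -0.06.

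Starch genes were few and varied between slides. Granule bound starch synthase, contig 2594, gave 0.75, -0.14 and 0.23, and alpha-amylase, contig 2068, which cuts starch chains, gave 0.68, -0.23 and 0.33. Both were highest on replicate 1 and below 0 on the slide with exchanged dyes. The pullulanase of contig 721, a starch debranching enzyme, had a mean of -0.04.

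Among the 16 organic acid contigs, 6 were above 0 and 6 below 0 on all 3 slides, against 17.9% and 16.5% of all features. None reached 1.5-fold, against 5.24% of all features. Aconitase, contig 2539, which isomerizes citrate to isocitrate, was the highest at 0.25, 0.58 and 0.26. Its mean was 0.36 ± 0.19 (SD, n = 3), a fold of 1.29, with an adjusted p of 0.446 in limma. The other aconitase, contig 2679, gave 0.38, -0.16 and 0.03. Citrate synthase, contig 1232, which forms citrate, gave 0.46, 0.02 and 0.12. Phosphoenolpyruvate carboxykinase, contig 452, which turns oxaloacetate into phosphoenolpyruvate, gave 0.24, 0.25 and 0.12, a mean of 0.20 ± 0.07 (SD, n = 3) with an adjusted p of 0.486 in limma. The 2-oxoglutarate/malate translocator of contig 2069 gave 0.18, 0.39 and 0.09, and that of contig 1843 had a mean of -0.07.

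Malate dehydrogenase interconverts malate and oxaloacetate, and 4 contigs carried its name. Contig 938 gave 0.23, 0.12 and 0.08, with a mean of 0.15 ± 0.08 (SD, n = 3). Its element JBW092E10 had a mean of 0.29, and JBW045H05, at the level of the background, had 0.00. The cytosolic form, contig 969, gave -0.15, -0.09 and -0.04 over 4 elements whose means over slides were all below 0, with a mean of -0.09 ± 0.05 (SD, n = 3) and an adjusted p of 0.684 in limma. The glyoxysomal form, contig 2395, had a mean of -0.12. Contig 658, with 3 elements, gave -0.08, -0.42 and 0.06, a mean of -0.15 ± 0.24 (SD, n = 3) with an adjusted p of 0.786 in limma. Its elements did not agree on direction over slides. JBW041C12 gave 0.35, -0.87 and 0.26, JBW045D10 had a mean of -0.34, and JBW101H05, at the level of the background, had -0.01. The gene list of the study names contig 658 as a malic enzyme, which releases pyruvate from malate, so its identity is uncertain.

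Isocitrate dehydrogenase oxidizes isocitrate to 2-oxoglutarate. The NAD-dependent alpha subunit, contig 1949, gave -0.23, -0.16 and -0.09, the lowest mean of the organic acid genes at -0.16 ± 0.07 (SD, n = 3) with an adjusted p of 0.566 in limma. That mean rested on 1 of its 4 elements. JBW008H01 had a mean of -0.72, and the elements JBW079C07, JBW091C05 and JBW086F01 had -0.02, 0.04 and 0.06. The NADP-dependent contigs 968 and 2205 had means of 0.05 and -0.14. ATP citrate lyase, which splits citrate outside the mitochondrion, had means of -0.07 in contig 1014 and -0.13 in contig 2374.

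**Figure D4:**
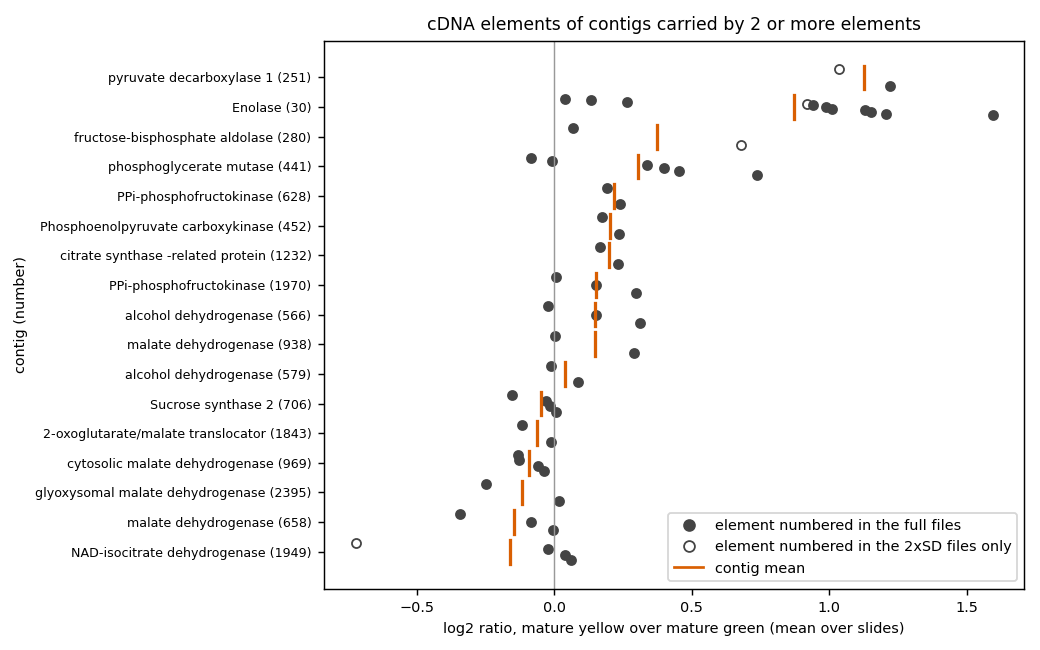
Mean log2 ratio of mature yellow over mature green fruit (x axis) for each cDNA element of the contigs carried by 2 or more elements (y axis), with filled points for elements numbered in the full spot tables, open points for elements numbered only in the tables of spots past the 2 SD test, and orange bars for contig means. All 11 elements of enolase contig 30 lie above 0, and the open point of contig 1949 at -0.72 lies apart from its 3 filled points.

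The elements JBW077C01 of contig 30, JBW034D03 of contig 251, JBW034G08 of contig 280 and JBW008H01 of contig 1949 carried contig numbers only in the tables of spots past the 2 SD test. Clones of this kind were sequenced by the study because of their ratio on these slides, so they are not independent evidence of a direction. Without them contig 30 had a mean of 0.87 and contig 251 had 1.22. Contig 280 had 0.07 in place of 0.37, and contig 1949 had 0.03 in place of -0.16.

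Transaldolase, contig 2764, which links the pentose phosphate pathway to glycolysis, gave 0.37, 0.10 and 0.23, a mean of 0.23 ± 0.13 (SD, n = 3) with an adjusted p of 0.535 in limma. Glucose-6-phosphate dehydrogenase, the entry enzyme of that pathway, had means of 0.17 in contig 2884 and 0.06 in contig 3130. Its ratios did not keep one sign in contig 2884. The glucose-6-phosphate translocator of contig 3331, which moves sugar phosphate across the plastid envelope, gave -0.49, 0.46 and 0.01, with opposite signs on replicates 1 and 2. The search words also drew in dihydroneopterin aldolase (contig 894, mean -0.26), an enzyme of folate synthesis, and 2-isopropylmalate synthase (contig 3293, mean -0.07), an enzyme of leucine synthesis.

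Contigs with the same enzyme name were compared in pairs. Among 20 pairs within 14 enzymes, the difference kept one sign on all measured slides in 8 pairs and exceeded its SD in 9. In each pair the contig with the highest mean was compared with another, so the sign of the mean was set by that choice. The choice also raises both counts, so they do not show that contigs of an enzyme differ. The triose-phosphate isomerase pair was measured on 2 slides only, and several pairs share a contig. Pyruvate decarboxylase contig 251 exceeded contig 882 by 1.28, 2.34 and 0.16 on replicates 1, 2 and 3, a mean of 1.26 ± 1.09 (SD, n = 3). Aldolase contig 280 exceeded contig 3389 by 0.62 ± 0.32 and sucrose-phosphate synthase contig 3239 exceeded contig 2303 by 0.40 ± 0.23 (SD, n = 3). Contigs 3389 and 2303 were near the blank spots, and contig 280 had a mean of 0.07 without JBW034G08. Isocitrate dehydrogenase contig 968, at 0.05, also exceeded contig 1949 on all slides, but contig 1949 had 0.03 without JBW008H01. Malate dehydrogenase contig 938 exceeded contig 969 by 0.24 ± 0.13 (SD, n = 3), but the signal of contig 938 came from 1 of its elements. With 3 slides a two-sided exact sign permutation test cannot go below p = 0.25, and 0.588 was the lowest value after adjustment over the 20 pairs.

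Other genes were found by a separate list of words for central carbon metabolism. These 21 contigs covered succinate dehydrogenase, succinyl-CoA ligase, 2-oxoglutarate dehydrogenase, transketolase and trehalose phosphate enzymes among others. Of them 15 were higher in mature yellow fruit, against 53.2% of all features. None was 1.5-fold higher or lower, against 5.24% of all features, and none passed the test, against 0.129%. With so few contigs, the absence of such contigs does not set the list apart from the array. Their median log2 ratio was 0.04, with a range of -0.14 to 0.28. The words also drew in an aspartate-semialdehyde dehydrogenase (contig 2047), a 2-oxoglutarate-dependent dioxygenase (contig 2972) and a nematode aldehyde dehydrogenase (contig 514). Some of the contigs were near the blank spots, and contig 1931 was above them on no slide. Glyceraldehyde 3-phosphate dehydrogenase, the glycolytic step between triose-phosphate isomerase and phosphoglycerate kinase, had 6 contigs with a median of 0.70. That median counts contig 910, described as a nematode gene, which had a mean of 0.92 over 2 slides. The 6 contigs ran from 0.00 in contig 136, carried by 16 elements, to 1.91 ± 1.07 (SD, n = 3) in contig 763, a cytosolic form of the glycolysis list, with an adjusted p of 0.414 in limma. Contig 816, also cytosolic, was the only one of the 6 that passed the test at 1.55 ± 0.13 (SD, n = 3) with an adjusted p of 0.046 in limma. The 0.00 of contig 136 averaged unlike elements: 13 of its 16 had a mean above 0, and the means ran from -4.40 to 1.20. In that contig 6 elements carried contig numbers only in the tables of spots past the 2 SD test.

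As facts of the whole array, the slides correlated at 0.41, 0.67 and 0.37 over all features for replicates 1 and 2, 1 and 3, and 2 and 3, and at 0.57, 0.79 and 0.48 over the members. The median SD over slides was 0.15 for the members and 0.14 for all features. Between 79.6% and 90.2% of member spots were above the blank spots, and median net intensities of member spots ranged from 44.1 to 146.5 in mature yellow and from 15.7 to 253 in mature green fruit, with replicate 3 the dimmest. Of 5 contigs described as bromelain or metallothionein, taken as markers of fruit flesh, 3 were above the blank spots in mature yellow and 4 in mature green fruit on all slides. Only 1 of the 5 was higher in mature yellow fruit, with log2 ratios from -3.57 to 0.44. The paper reports bromelain lower and metallothionein higher in mature yellow fruit, so these markers are not independent of stage. No description matched the words searched for green photosynthetic tissue.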

How the data were processed

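The authors deposited scanner intensity values of both channels and the local background of every spot, edited in the scanner software, with no normalization: medians in the full tables of replicates 1 and 2 and means in replicate 3, plus tables of the spots that passed their 2 SD test. The authors also deposited a score per contig, a signed ratio described as LOWESS normalized, and the scanner's spot ratio is a further deposited score. Both scores served only as an alternative or to read it.

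Computation used R 4.3.3, limma 3.58.1, Python 3.11.15 and matplotlib 3.10.9. The background was removed with normexp (offset 50) and each slide was loess normalized on its cDNA spots. Spots the scanner software marked abnormal were dropped. Log2 ratios were expressed as mature yellow over mature green and averaged first over duplicate spots, then over elements. A feature needed 2 slides. Each was tested by limma with an intercept and Benjamini-Hochberg adjustment over 7773 features. A call needed 1.5-fold and an adjusted p under 0.05. A channel was above the blank spots where it exceeded their median by 2 robust SD.

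Members and lists were chosen with earlier results of these data known. Contigs named with full statistics were those of the glycolysis list of the study, members at 1.5-fold or an unadjusted p under 0.05, those with 3 or more elements, and the highest and lowest of each role. Others were named to account for the members. The words left out 6 contigs, such as UDP-glucose pyrophosphorylase and sucrose synthase 1. The statistics were tested on simulated data. No sequence or genome position was used here. Columns of values per sample not used number 0. The number of slides limits the precision.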

Additional observations from a re-analysis of the deposited data

How the results depend on the processing

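Of 356 values of the named contigs under other settings, 343 kept direction and side of the threshold. The features called, 10 in the report (4 higher in mature yellow fruit), numbered 59 with plain background subtraction (24 higher), 18 with no background correction, 26 with an offset of 10, 6 with median centring (1 higher), 0 with scale normalization between slides (170 at 1.5-fold with an unadjusted p under 0.05 in limma), 52 with only spots 2 SD above the blanks, 106 with only spots that passed the 2 SD test, 64 with a dye term (35 higher), 28 with trend and robust variances, 222 with each element as a feature, 227 with contig numbers of the full tables only, 0 with the median over elements (276 at the unadjusted p), 136 in the deposited table (102 higher) and 22 at an adjusted p under 0.1. Leaving out a slide gave 0 to 5: 0 without replicate 1 (189 at the unadjusted p), 0 without replicate 2 (367) and 5 without replicate 3.

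Members called numbered 0 of 53 in the report (8 at an unadjusted p under 0.05 in limma). With spots past the 2 SD test 1 of 26 members was called (contig 251, 1.53, adjusted p 0.0467 in limma), against 106 of 2127 features. With each element as a feature 2 of 92 were called (JBW061E01 and JBW077C01 of contig 30), against 222 of 9275. With full-table contig numbers 1 of 53 was called (contig 30, 0.87, adjusted p 0.0409 in limma), against 227 of 8176. In none of these settings was the share of members called above that of all features. Among the deposited values 4 of 41 members were called, against 136 of 2227 features. These were contigs 30 (1.77, adjusted p 0.00157), 251 (2.14, 0.00407), 1394 (2.11, 0.000202) and 3191 (1.5, 0.0102), where the adjusted p-values are from limma. Over all alternatives their adjusted p ranged up to 0.786, 0.901, 0.835 and 0.901. Members at 1.5-fold, 4 in the report, were 16 of 46 with subtraction (12 higher, 4 lower, against 26.5% of all features), 15 of 92 elements (14 higher, 1 lower, against 9.10%) and 12 of 41 contigs in the deposited table (10 higher, 2 lower, against 27.1%), where the median of all features was 0.17. In that table replicate 2 ran against the computed ratios as deposited (r = -0.86) and was turned by its dyes, and replicate 3 held 16 members and a median of 1.03 on the log2 scale. The member median, 0.05 in the report, was 0.22 with subtraction, 0.19 with spots 2 SD above the blanks, 0.14 with spots past the 2 SD test and 0.29 in the deposited table.

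Directions reversed in the deposited table for contigs 658 (0.16), 969 (0.011) and 1949 (0.048), with full-table contig numbers for contig 1949 (0.026), with no background correction (0.014) and when a slide was left out (-0.16 without replicate 2 to 0.052 without replicate 1) for contig 2303, and with spots past the 2 SD test for contig 2764 (-0.015). The causes were not tested. Contig 251 was 0.64 without replicate 2 and 1.61 without replicate 3, contig 441 0.15 without replicate 1 and 0.49 without replicate 2. Leaving abnormal spots out before fitting the background, and a limit of 2 robust SD above the blanks, were chosen after seeing the data and gave 9 calls each. No paired analysis was possible because each ratio already sets both stages against each other within a slide, as the test uses it, and no second group of slides could be blocked by number. Groups of 3 slides were not screened for outlying values.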

Other observations

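Among the 6 contigs that the excluded words kept out of the list, UDP-glucose pyrophosphorylase contig 2655, which makes UDP-glucose for sucrose synthesis, gave log2 ratios of 0.85, 0.09 and 0.47 on replicates 1, 2 and 3, a mean of 0.47 ± 0.38 (SD, n = 3) with an adjusted p of 0.566 in limma. Sucrose synthase 1, contig 946, had a mean of -0.06, close to the -0.05 of sucrose synthase 2. Both were named after their values were seen.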
